A study of Danio rerio with 11 samples.

Results

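The transcripts described here are those of the zebrafish eIF4E family and of the proteins that hold eIF4E in check. They come from 8 genes, picked by name out of 32520 gene identifiers: eif4e1b (ENSDARG00000014565), eif4e1c (ENSDARG00000012274), eif4eb, eif4e2, eif4e3, eif4ebp1, eif4ebp2 and eif4ebp3l. Embryos of Danio rerio at the 8-cell stage were lysed, a tagged eIF4E was immunoprecipitated with anti-GFP beads, and the RNA that came with it (RIP) was sequenced beside the RNA of the lysate (input). Embryos of genotype tg(actb2:3xflag-sfGFP-eIF4E1b) gave 3 RIP and 3 input libraries, and embryos of genotype tg(actb2:3xflag-sfGFP-eIF4E1c) gave 2 RIP and 3 input libraries. In both lines the ubiquitous actb2 (beta-actin) promoter drives the expression of a bait that carries 3xflag and sfGFP at its N terminus, and the labels name no other allele. Thus eif4e1b and eif4e1c are each the bait of one line, and a count per gene joins the reads of the transgene with those of the endogenous gene. RIP and input libraries were prepared with different kits, so that for a difference between RIP and input the pulldown and the kit cannot be told apart. Immunoprecipitates from embryos without a tag were not analysed here.

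eIF4E binds the cap at the 5′ end of mRNAs and, through the scaffold eIF4G, brings the ribosome to them. The 4E-binding proteins (4E-BPs) carry the same short binding motif as eIF4G and compete with it for eIF4E, and phosphorylation by mTOR complex 1 releases them. Class I members include the canonical eIF4E and its germline paralog eIF4E1b. Class II (eIF4E2, also 4EHP) and class III (eIF4E3) bind the cap more weakly. In the first cleavages the zebrafish genome is silent, so the mRNAs present are maternal.

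All 8 transcripts were detected in all 11 libraries, with read counts of 116 or more, and all 8 were tested in each comparison below. Library totals lay between 6943631 and 13993294 counts. The first eIF4E1c RIP library was the shallowest and stood apart, with counts for 15114 genes against 17520 to 19591 in the other 10. Values without it are given where they bear on a result. When an eIF4E1c RIP library is left out, a single one remains in that group and its spread cannot be estimated. Such fits are given by effect size only. The lysates had the RNA of an early embryo: all 9 of the maternal markers found reached at least 100 counts in every input library, with a summed level of 2934 to 3634 CPM (counts scaled to a common total). Of 9 markers of later stages, 6 did not exceed 10 counts in any input library, and their summed level was 2.56 to 5.47 CPM. Values per gene are read counts divided by the DESeq2 size factors of all 11 libraries (normalized counts). They carry no correction for gene length, so levels are compared between libraries and not between genes. A gene is said to have changed where the adjusted p of DESeq2's Wald test over all genes was below 0.005. Differences are log2 fold changes ± SE. That groups do not overlap is given as a description: this held for 25.8% of all tested genes between the inputs, and for 64.6% and 63.9% between RIP and input of the eIF4E1b and the eIF4E1c line. Each input was kept from the lysate used for a RIP, and fits with the replicate number as a block are given where they end a call between RIP and input or for the ratio. For the eIF4E1c line the numbers are in doubt, because the deposited table of the second RIP library carries the number 3 and not the 2 of its label, which was used.

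**Figure D1:**
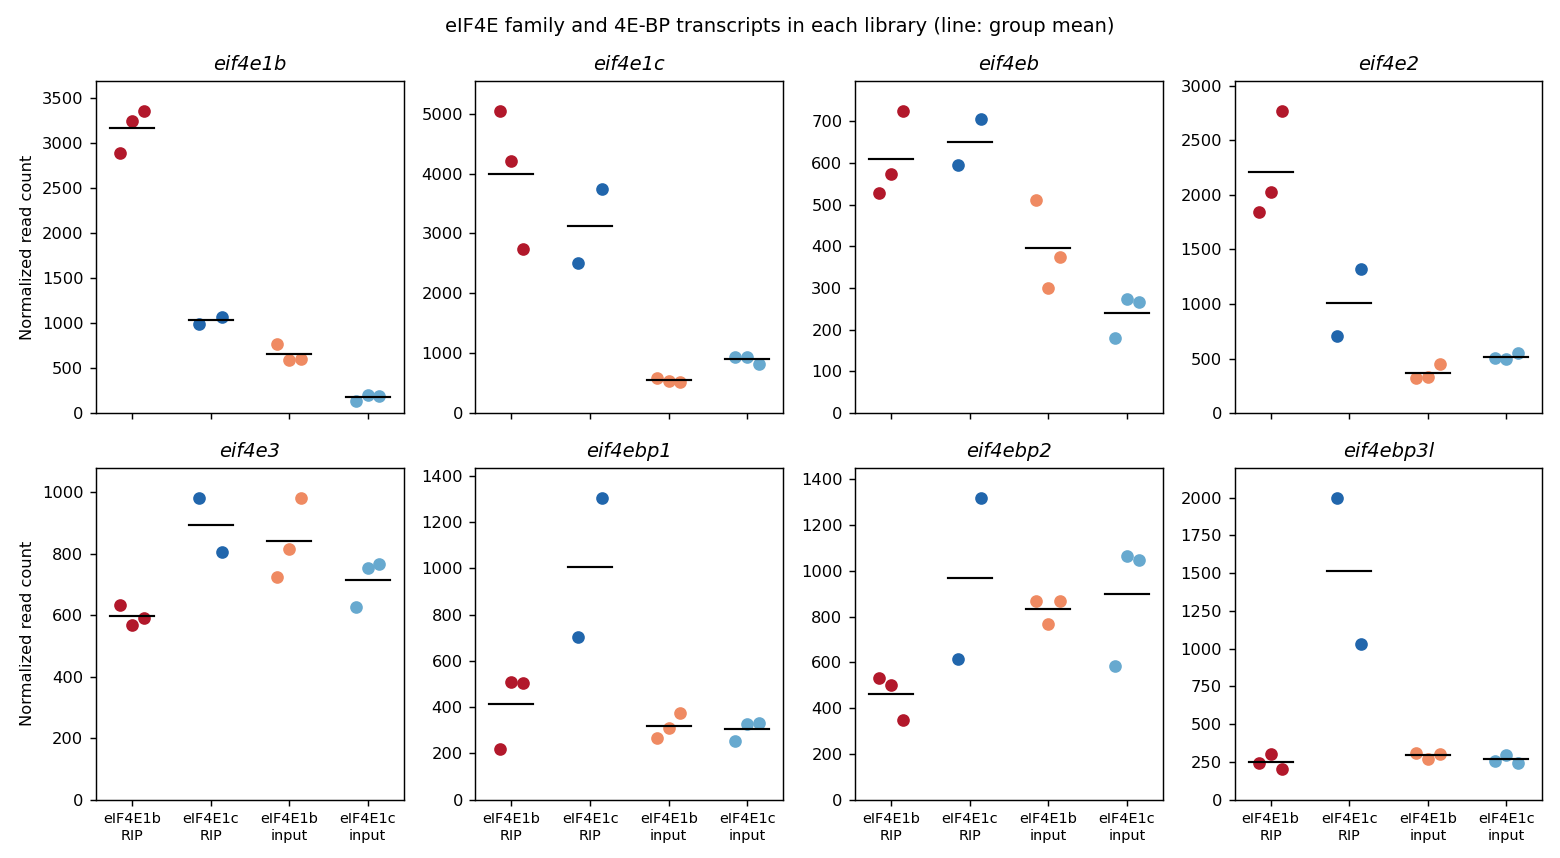
Normalized read counts (linear axis from 0, a scale of its own for each gene) of the 8 transcripts in each library, by group, with the group mean as a line. The eIF4E1c RIP points of eif4ebp3l (1999 and 1032) lie above those of every other group (205.5 to 308), and the eIF4E1b RIP points of eif4e2 (1845 to 2765) lie above those of every other group (319 to 1316).

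To ask how the family stood in the lysates that the proteins were pulled from, the inputs of both lines were compared first. Only the baits passed the test. Among the 8 genes 1 was higher and 1 lower in eIF4E1b input, whereas 0.874% and 1.40% of all 15560 tested genes were. The transcript of eif4e1b had 767, 585 and 607 normalized counts in eIF4E1b input, against 139, 203 and 193 in eIF4E1c input. The groups lay far apart, with a difference of 1.87 ± 0.20 (DESeq2 adjusted p = 7.80e-17). For eif4e1c, a class I gene found only in fish, the eIF4E1b input libraries had 583, 544 and 527 normalized counts and the eIF4E1c input libraries had 939, 933 and 820. Each bait was thus higher in its own line without overlap, but the step was smaller for eif4e1c, at -0.69 ± 0.15 (DESeq2 adjusted p = 0.000172). The eif4e1c difference missed the threshold with edgeR (adjusted p = 0.0279) and with all 11 libraries in one fit (DESeq2 adjusted p = 0.247). In these bulk lysates fewer cells with a transcript and less of it per cell cannot be told apart.

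The other 6 transcripts did not pass the test between the inputs. The closest was eif4eb, one of the canonical class I genes, with 512, 300 and 375 normalized counts in eIF4E1b input, against 181, 274 and 266 in eIF4E1c input. All 3 eIF4E1b input libraries were above the eIF4E1c ones (0.72 ± 0.24, DESeq2 adjusted p = 0.0523). For eif4e2 the difference was -0.48 ± 0.18 (DESeq2 adjusted p = 0.0994), and for eif4e3 it was 0.24 ± 0.17 (DESeq2 adjusted p = 0.475). The 4E-BP transcripts had the smallest differences, between -0.10 for eif4ebp2 and 0.15 for eif4ebp3l. The 95% interval of eif4ebp3l ran from -0.21 to 0.52.

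Because the reads of both baits are counted in one library, their ratio does not depend on the scaling between libraries. The ratio of eif4e1b to eif4e1c reads was 1.32, 1.08 and 1.15 in eIF4E1b input, against 0.148, 0.217 and 0.235 in eIF4E1c input. This was a 6.0-fold difference between the lines (mean log2 ratio 0.24 ± 0.15 and -2.35 ± 0.36, SD, n = 3 each; two-sided exact permutation test, p = 0.1, the smallest p that 3 against 3 libraries allow). In the immunoprecipitates the lines were closer, with ratios of 0.574, 0.772 and 1.22 in eIF4E1b RIP, against 0.395 and 0.286 in eIF4E1c RIP. The groups did not overlap, and the difference was 2.42-fold (two-sided exact permutation test, p = 0.1, again the smallest the design allows). The log2 ratio had an SD of 0.55 in eIF4E1b RIP, against 0.15 in eIF4E1b input, and of 0.33 in eIF4E1c RIP, against 0.36 in eIF4E1c input.

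**Figure D2:**
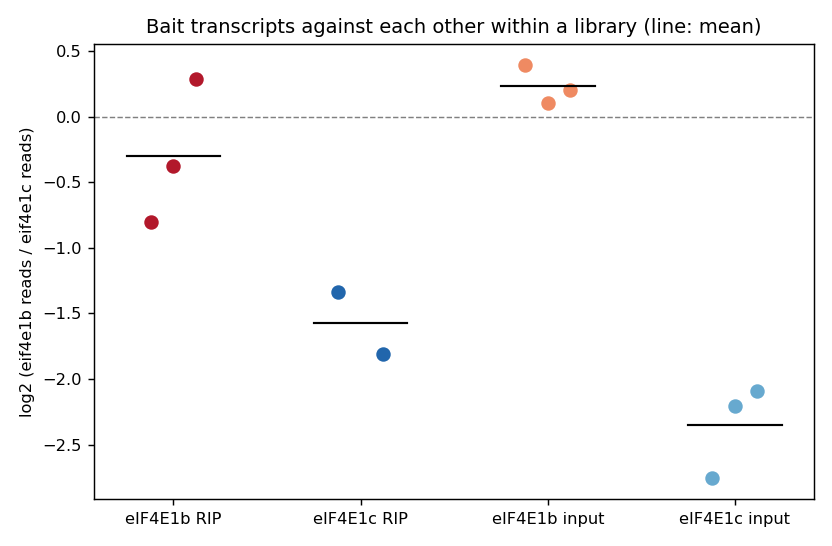
The log2 ratio of eif4e1b reads to eif4e1c reads in each library (y axis), by group, with the mean as a line and a dashed line at equal read counts. The eIF4E1b libraries lie above the eIF4E1c libraries among the RIPs and among the inputs, with means 1.28 and 2.59 log2 units apart.

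Next, each immunoprecipitate was set against the lysate of its own line. The transcripts of both baits were higher in the RIP than in the input in both lines, a difference in which pulldown and kit cannot be told apart. In the eIF4E1b line eif4e1b had 2892, 3243 and 3352 normalized counts in the RIP, against 767, 585 and 607 in the input. In the eIF4E1c line, where the transgene does not encode it, eif4e1b had 994 and 1069 normalized counts in the RIP, against 139, 203 and 193 in the input. All RIP libraries were above all inputs of their line, by 2.25 ± 0.22 with eIF4E1b (DESeq2 adjusted p = 6.15e-24) and by 2.53 ± 0.33 with eIF4E1c (DESeq2 adjusted p = 8.69e-13). The transcript of eif4e1c had 5041, 4203 and 2747 normalized counts in eIF4E1b RIP, against 583, 544 and 527 in eIF4E1b input. It had 2514 and 3739 normalized counts in eIF4E1c RIP, against 939, 933 and 820 in eIF4E1c input. Again every RIP library was above every input of its line, with log2 fold changes of 2.83 ± 0.26 for eIF4E1b (DESeq2 adjusted p = 7.32e-27) and 1.80 ± 0.31 for eIF4E1c (DESeq2 adjusted p = 7.37e-08). These 4 calls held under every alternative that kept both eIF4E1c RIP libraries, edgeR included.

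A difference in the RIP to input ratio between the proteins was tested as an interaction over all 11 libraries, in which a kit effect shared by both lines cancels. It uses the same libraries as the other comparisons and is not independent of them. For eif4e1b the ratio with eIF4E1b minus that with eIF4E1c was -0.25 ± 0.33 (DESeq2 adjusted p = 0.655), with a 95% interval from -0.90 to 0.40. For eif4e1c it was 1.06 ± 0.40 (DESeq2 adjusted p = 0.0412), short of the threshold. Without the third eIF4E1b RIP library it passed (DESeq2 adjusted p = 0.00367). Over the single libraries left out it ran from 0.783 to 1.36, the latter without the second eIF4E1c RIP library. Alternatives that kept all libraries gave values down to 0.805 and DESeq2 adjusted p up to 0.307 (edgeR adjusted p = 0.0839). Thus neither bait transcript was shown to be recovered better with its own protein. The eif4e1c estimate was higher with eIF4E1b, the other protein, in every setting, but passed in none that kept all libraries.

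**Figure D3:**
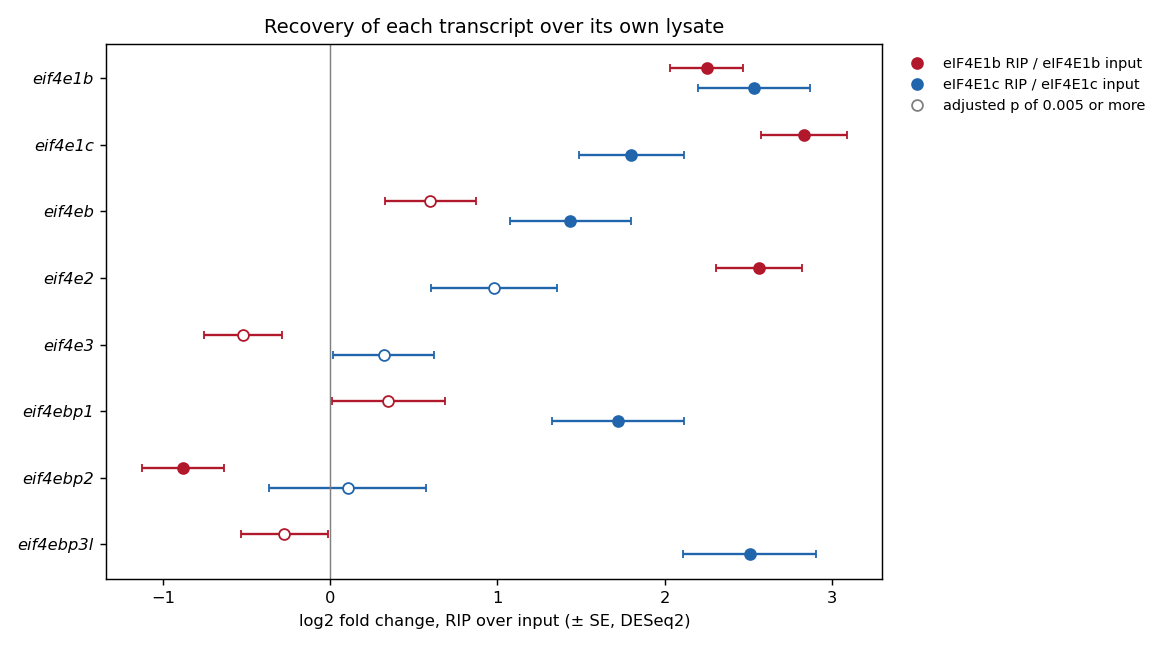
Log2 fold change of RIP over the input of the same line (x axis, ± SE, DESeq2) for the 8 transcripts, with eIF4E1b in red and eIF4E1c in blue. Filled points passed the adjusted p threshold of 0.005. The points of eif4ebp3l (-0.27 and 2.51) and eif4e2 (2.56 and 0.98) are the pairs that differed between the proteins.

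Of all 8 transcripts, 3 were higher and 1 lower in eIF4E1b RIP than in its input, where 22.5% and 22.8% of 17444 tested genes were. In eIF4E1c RIP 5 were higher and 0 lower than in its input, where 17.4% and 17.0% of 14953 tested genes were. The median log2 fold change of the 8 was 0.47 with eIF4E1b and 1.58 with eIF4E1c, and that of all tested genes was 0.064 and 0.0056. For eif4eb the eIF4E1b RIP libraries had 529, 574 and 724 normalized counts and the eIF4E1b inputs 512, 300 and 375. The groups did not overlap, yet the difference of 0.60 ± 0.27 missed the threshold (DESeq2 adjusted p = 0.0503). In the eIF4E1c line eif4eb had 594 and 706 normalized counts in the RIP, against 181, 274 and 266 in the input, and the log2 fold change was 1.44 ± 0.36 (DESeq2 adjusted p = 0.000271). It missed the threshold with edgeR (adjusted p = 0.00849), with total-count scaling (DESeq2 adjusted p = 0.0122), and when the first (DESeq2 adjusted p = 0.0157), the second (0.00905) or the third input (0.0121) was left out. With the replicate block it was not past the threshold either (1.54, DESeq2 adjusted p = 0.0204). The ratio did not differ between the proteins past the threshold (-0.81 ± 0.42, DESeq2 adjusted p = 0.168).

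The class II transcript eif4e2 lay above input with both proteins, with the larger estimate for eIF4E1b. eIF4E2 is a cap-binding repressor in mammals, where it works with GIGYF proteins. In eIF4E1b RIP it had 1845, 2027 and 2765 normalized counts, against 319, 334 and 448 in eIF4E1b input. Here the lowest RIP library was well above the highest input, at 2.56 ± 0.26 (DESeq2 adjusted p = 5.15e-22; edgeR adjusted p = 1.16e-05). In eIF4E1c RIP eif4e2 had 708 and 1316 normalized counts, against 504, 492 and 547 in eIF4E1c input. These groups too did not overlap, but the RIP libraries spread widely and the difference of 0.98 ± 0.38 missed the threshold (DESeq2 adjusted p = 0.0219). Without the first eIF4E1c RIP library it was 1.40. The ratio with eIF4E1b was higher by 1.61 ± 0.43, or 3.05-fold (DESeq2 adjusted p = 0.00248). Among all 14013 genes tested for the ratio 3.80% were higher with eIF4E1b and 5.32% lower, and among the 8 transcripts 1 was higher and 1 lower. The eif4e2 call was fragile. It did not hold with edgeR (adjusted p = 0.0214), with total-count scaling (DESeq2 adjusted p = 0.0582) or without the third eIF4E1b RIP library (0.0116). Nor did it hold without the first or second eIF4E1b input (0.0156 and 0.0159) or any one eIF4E1c input (0.00975 to 0.0145). Without the first eIF4E1c RIP library the difference was 1.22.

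The class III transcript eif4e3 was the one eIF4E member with every eIF4E1b RIP library below every input of its line. It had 633, 568 and 591 normalized counts in eIF4E1b RIP, against 724, 816 and 982 in eIF4E1b input. The difference was -0.52 ± 0.23 (DESeq2 adjusted p = 0.0439), which passed the threshold with total-count scaling only (-0.93, DESeq2 adjusted p = 0.000254). In the eIF4E1c line eif4e3 had 981 and 805 normalized counts in the RIP, against 626, 752 and 766 in the input, a difference of 0.32 ± 0.30 (DESeq2 adjusted p = 0.397). The ratio differed by -0.81 ± 0.32 (DESeq2 adjusted p = 0.0528).

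Among the transcripts of the 4E-BPs, the inhibitors of eIF4E, eif4ebp3l (a gene like the mammalian 4E-BP3) was set apart by the protein it came with. It had 242, 300 and 205.5 normalized counts in eIF4E1b RIP, against 308, 272 and 305 in eIF4E1b input. RIP and input overlapped in this line (-0.27 ± 0.26, DESeq2 adjusted p = 0.379, 95% interval from -0.79 to 0.24). In eIF4E1c RIP it had 1999 and 1032 normalized counts, against 256, 299 and 244 in eIF4E1c input. Both RIP libraries were several times above every input, at 2.51 ± 0.40 or 5.68-fold (DESeq2 adjusted p = 3.51e-09; edgeR adjusted p = 0.00132). The ratio with eIF4E1b was lower by 6.72-fold, with a log2 difference of -2.75 ± 0.43 (DESeq2 adjusted p = 2.46e-08; edgeR adjusted p = 0.00152). Without the first eIF4E1c RIP library, in which the transcript was highest, the difference was -2.21. The call held in every setting that kept both eIF4E1c RIP libraries. Among the differences of all genes tested it stood at percentile 1.93.

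The transcript of eif4ebp1, the 4E-BP best known as an mTOR target in mammals, had 221, 510 and 504 normalized counts in eIF4E1b RIP, against 265, 311 and 375 in eIF4E1b input. These groups overlapped (0.35 ± 0.34, DESeq2 adjusted p = 0.381), and with total-count scaling the sign turned (-0.10). In eIF4E1c RIP eif4ebp1 had 703 and 1304 normalized counts, against 255, 327 and 332 in eIF4E1c input, a rise of 1.72 ± 0.40 (DESeq2 adjusted p = 6.73e-05). The rise missed the threshold with edgeR (adjusted p = 0.00618), with the replicate block (DESeq2 adjusted p = 0.00509) and without the first eIF4E1c input (DESeq2 adjusted p = 0.00555). Its ratio differed by -1.35 ± 0.54 (DESeq2 adjusted p = 0.0570).

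For eif4ebp2, which encodes the 4E-BP abundant in mammalian brain, the eIF4E1b RIP libraries had 531, 503 and 350 normalized counts and the eIF4E1b inputs 867, 768 and 868. Every RIP library was below every input, and it was the one transcript of the 8 that fell (-0.88 ± 0.25, DESeq2 adjusted p = 0.000822). It was not past the threshold with edgeR (adjusted p = 0.00585), with all 11 libraries in one fit (DESeq2 adjusted p = 0.0224) or when the first (DESeq2 adjusted p = 0.0106), the second (0.00586) or the third eIF4E1b input (0.0121) was left out. In eIF4E1c RIP it had 616 and 1319 normalized counts, against 586, 1064 and 1049 in eIF4E1c input. These libraries overlapped, the difference was 0.10 ± 0.47 (DESeq2 adjusted p = 0.878), and without the second eIF4E1c RIP library it was -0.53. The ratio differed by -0.96 ± 0.50 (DESeq2 adjusted p = 0.168).

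The RIPs were then compared directly, from the same RIP libraries. Here 1 of the 8 transcripts was higher with eIF4E1b and 1 lower, whereas 3.37% and 4.42% of 14351 tested genes were. With edgeR 0 of the 8 passed an adjusted p of 0.005, against 0.0268% of all tested genes. An unadjusted edgeR p under 0.05 was found for 5 of the 8 and for 4045 of all 14929 tested genes. The bait eif4e1b was higher in eIF4E1b RIP (2892, 3243 and 3352 normalized counts, against 994 and 1069 in eIF4E1c RIP; 1.55 ± 0.36, DESeq2 adjusted p = 0.000517). The inputs already differed for this transcript, by 1.87 ± 0.20, and its RIP to input ratio differed by -0.25 ± 0.33 (DESeq2 adjusted p = 0.655). Between the RIPs the eif4e1b difference missed the threshold with edgeR (adjusted p = 0.0260), with total-count scaling (DESeq2 adjusted p = 0.0107), without the second eIF4E1b RIP library (DESeq2 adjusted p = 0.0248) and without the third (0.0181). By contrast, eif4ebp3l was lower in eIF4E1b RIP by 6.36-fold (-2.67 ± 0.46, DESeq2 adjusted p = 7.78e-07). It stayed past the threshold without any one eIF4E1b RIP library, and missed it with edgeR alone (adjusted p = 0.00653). Without the first eIF4E1c RIP library the difference was -2.13.

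Between these extremes lay the remaining 6 transcripts. The difference for eif4e2 was 1.06 ± 0.44 (DESeq2 adjusted p = 0.0696), which passed with all 11 libraries in one fit (DESeq2 adjusted p = 0.00251). It was 1.57 without the second eIF4E1c RIP library and 0.67 without the first. For eif4e1c (0.30 ± 0.43), eif4eb (-0.16 ± 0.40) and eif4e3 (-0.64 ± 0.39) the 95% intervals spanned 0, from -0.55 to 1.14, from -0.95 to 0.63 and from -1.41 to 0.12. The other 4E-BP transcripts, eif4ebp1 (-1.35 ± 0.51, DESeq2 adjusted p = 0.0461) and eif4ebp2 (-1.13 ± 0.48, DESeq2 adjusted p = 0.0793), had lower estimates with eIF4E1b without passing the test. Their size depended on the eIF4E1c RIP library kept. Without the second they were -0.85 for eif4ebp1 and -0.48 for eif4ebp2, and without the first -1.75 and -1.59. For eif4ebp1 the RIP libraries of the proteins did not overlap (221, 510 and 504 with eIF4E1b, against 703 and 1304 with eIF4E1c), and the same was true of eif4ebp2 (531, 503 and 350, against 616 and 1319). Such a separation was common, since the RIP groups did not overlap for 44.8% of all tested genes.

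The proteins that meet eIF4E were followed through a list of 20 further genes. The list holds the eIF4G scaffolds, other eIF4E-binding proteins, mTOR complex 1 and the MNK kinases (which phosphorylate eIF4E), and the rest of both families. In eIF4E1b RIP, 0 of the 20 were higher and 3 lower than in eIF4E1c RIP (3.37% and 4.42% of all tested genes), with a median log2 fold change of -0.61 against -0.0036 for all tested genes. Both genes for eIF4G3 were among the 3. For eif4g3a the eIF4E1b RIP libraries had 224, 91.8 and 165 normalized counts and the eIF4E1c RIP libraries had 1195 and 750. The groups were far apart (-2.66 ± 0.51, DESeq2 adjusted p = 1.08e-05), but the difference missed the threshold with edgeR (adjusted p = 0.00971). For eif4g3b the values were 231, 119 and 118 in eIF4E1b RIP, against 1503 and 920 in eIF4E1c RIP (-3.01 ± 0.49, DESeq2 adjusted p = 1.93e-07). The eif4g3b difference missed the threshold with edgeR as well (adjusted p = 0.00653). In the inputs neither passed the test, with 2030 to 2393 and 1585 to 1913 normalized counts in eIF4E1b input, against 2358 to 2769 and 1914 to 2469 in eIF4E1c input. The third was mknk1, an MNK kinase gene, with 553, 495 and 336 normalized counts in eIF4E1b RIP, against 1781 and 993 in eIF4E1c RIP (-1.65 ± 0.46, DESeq2 adjusted p = 0.00432). The mknk1 difference missed the threshold with edgeR (adjusted p = 0.0262) and with total-count scaling (DESeq2 adjusted p = 0.00741). It also fell short when any single eIF4E1b RIP library was dropped (DESeq2 adjusted p = 0.00746 to 0.0581). Without the first eIF4E1c RIP library the mknk1 difference was -1.18.

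The same 3 genes were lower in the RIP to input ratio with eIF4E1b, as was eif4e2rs1, a class II relative of eif4e2, which made 4 of 20 lower and 0 higher (5.32% and 3.80% of all tested genes). The log2 differences were -2.38 ± 0.47 for eif4g3a (DESeq2 adjusted p = 1.53e-05; edgeR adjusted p = 0.00454), -2.69 ± 0.46 for eif4g3b (DESeq2 adjusted p = 5.05e-07; edgeR adjusted p = 0.00244) and -2.03 ± 0.43 for mknk1 (DESeq2 adjusted p = 9.81e-05). The mknk1 difference missed the threshold with edgeR (adjusted p = 0.00626). For eif4e2rs1 the difference was -1.35 ± 0.37 (DESeq2 adjusted p = 0.00351), opposite in sign to that of eif4e2. When the first eIF4E1b RIP library was dropped, eif4g2b (DESeq2 adjusted p = 0.00418) and cyfip1 (0.00364) were lower as well. When the first eIF4E1c RIP library was dropped, the difference for MKNK2 (ENSDARG00000015164) was 1.31, against 1.05 with all libraries. The eif4e2rs1 difference was no longer past the threshold with edgeR (adjusted p = 0.0275) or with the replicate block (DESeq2 adjusted p = 0.0282). Nor was it without the third eIF4E1b RIP library or without any single input (DESeq2 adjusted p = 0.00746 to 0.0246). Without the second eIF4E1c RIP library it was -1.15. The first gene of each group that did not pass gave -0.18 ± 0.55 for eif4g1a, -0.30 ± 0.49 for eif4enif1 (the gene for 4E-T, a repressor that binds eIF4E), 1.62 ± 0.61 for mtor (2.01 and past the threshold without the second eIF4E1b RIP library, DESeq2 adjusted p = 0.000123) and 0.70 ± 0.56 for EIF4E (ENSDARG00000077012).

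**Figure D4:**
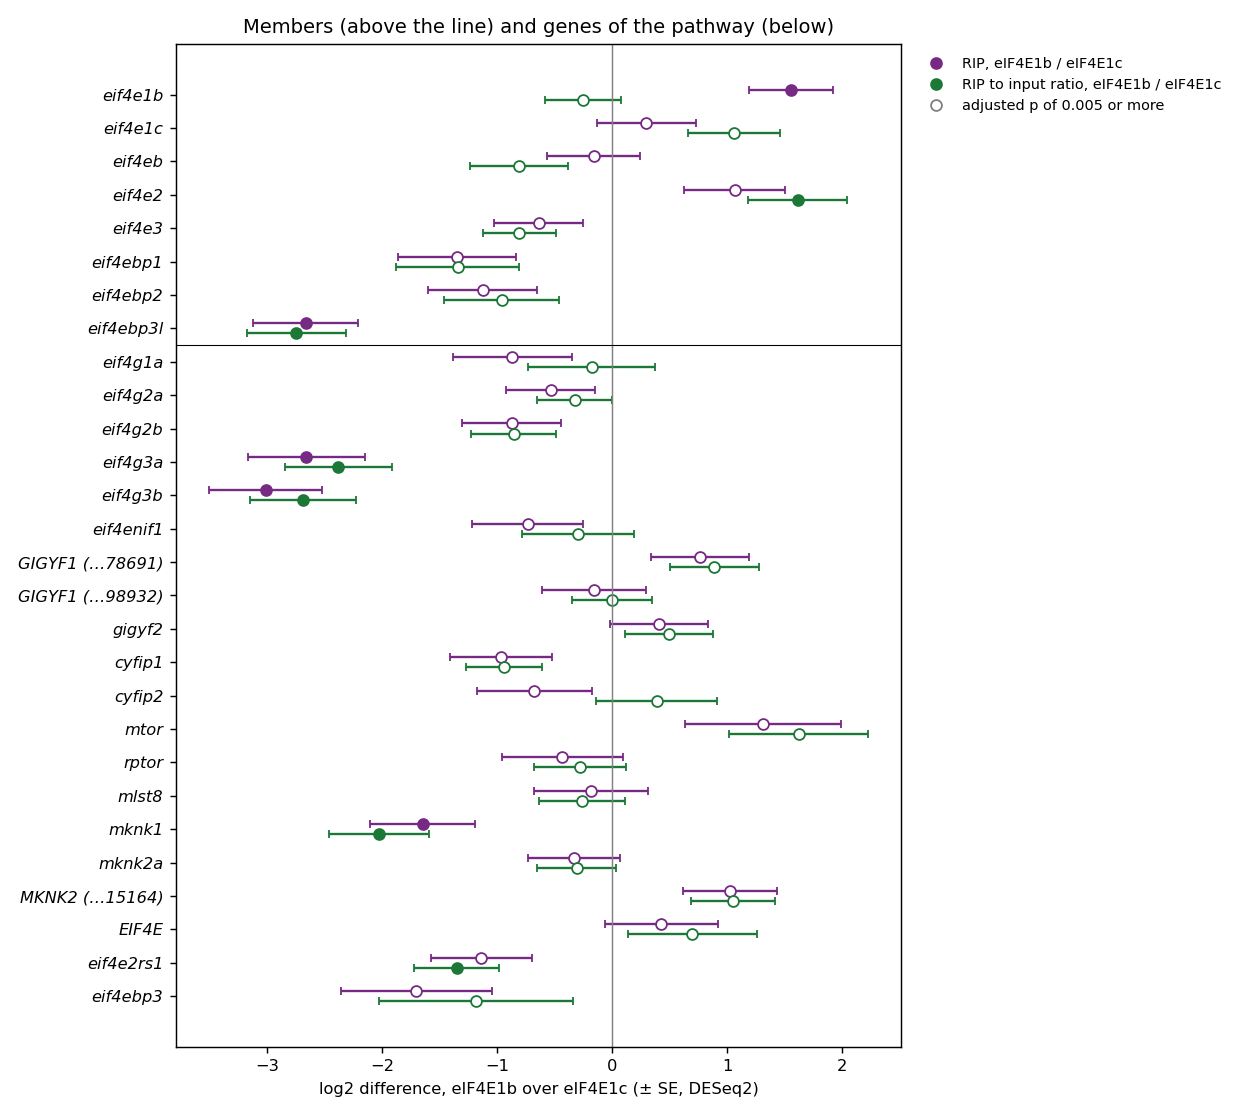
Log2 difference of eIF4E1b over eIF4E1c (x axis, ± SE, DESeq2) between the RIPs (purple) and between the RIP to input ratios (green), for the 8 transcripts above the line and the 20 genes of the list below it. Filled points passed the adjusted p threshold of 0.005. Among the lowest estimates are eif4ebp3l (-2.67 and -2.75), eif4g3a (-2.66 and -2.38) and eif4g3b (-3.01 and -2.69).

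Over their own inputs more of these genes were lower than higher, in contrast to the 8 transcripts. In eIF4E1b RIP 3 of the 20 were higher and 11 lower than in its input, with a median of -1.40, where 22.5% and 22.8% of all tested genes were. In eIF4E1c RIP 2 were higher and 8 lower, with a median of -0.76, where 17.4% and 17.0% of all tested genes were. Those that fell in eIF4E1b RIP were 4 of 5 eIF4G genes, from eif4g2b (-2.29 ± 0.25) and eif4g2a (-2.35 ± 0.23) to eif4g3b (-3.52 ± 0.29) and eif4g3a (-3.84 ± 0.30), 4 of 6 genes for other binding proteins, eif4enif1 (-1.52 ± 0.30), GIGYF1 (ENSDARG00000098932, -1.40 ± 0.26), gigyf2 (-2.33 ± 0.26) and cyfip1 (-1.78 ± 0.25), and 3 of 6 kinase and mTOR complex genes, mtor (-1.40 ± 0.39), rptor (-2.02 ± 0.28) and mknk1 (-1.60 ± 0.26). Those that fell in eIF4E1c RIP were eif4g2a (-1.99 ± 0.28), eif4g2b (-1.41 ± 0.28), eif4g3a (-1.43 ± 0.33), eif4enif1 (-1.19 ± 0.37), GIGYF1 (ENSDARG00000098932, -1.38 ± 0.28), gigyf2 (-2.80 ± 0.29), mtor (-3.01 ± 0.38) and rptor (-1.71 ± 0.35). A second GIGYF1 gene (ENSDARG00000078691) did not pass, at 0.15 ± 0.26 in eIF4E1b RIP and -0.71 ± 0.30 in eIF4E1c RIP. In eIF4E1b RIP mtor missed the threshold with edgeR (adjusted p = 0.0138) and when the second (DESeq2 adjusted p = 0.00701) or the third input (0.0168) was dropped. In eIF4E1c RIP edgeR called 4 of the 8 lower and lost eif4g2b (adjusted p = 0.00676), eif4g3a (0.00636), eif4enif1 (0.0194) and rptor (0.00647). With the replicate block 5 of the 8 were lost, namely eif4g2b (DESeq2 adjusted p = 0.00924), eif4g3a (0.0105), eif4enif1 (0.0466), GIGYF1 (0.0290) and rptor (0.0147). Single inputs decided 4 of the calls as well: eif4g3a failed without the first (DESeq2 adjusted p = 0.00603) or the third (0.00820), GIGYF1 without the second (0.00691) or the third (0.0105), rptor without the third (0.00759) and eif4enif1 without any single one of them (0.0255 to 0.0516). Without the first eIF4E1c RIP library eif4g3b was at -1.16, the second GIGYF1 gene at -0.87 and cyfip1 at -0.84. The eif4g1a estimate moved to either side of 0, at -0.77 without the first and 0.70 without the second eIF4E1c RIP library. Fits with a single eIF4E1c RIP library thus do not settle its direction.

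Of the other members of both families, EIF4E and eif4ebp3 were higher in the RIPs. EIF4E had 433, 368 and 468 normalized counts in eIF4E1b RIP, against 79.9, 98.1 and 56.0 in eIF4E1b input (2.42 ± 0.30, DESeq2 adjusted p = 2.36e-15). It had 421 and 185 normalized counts in eIF4E1c RIP, against 115, 94.2 and 60.9 in eIF4E1c input (1.75 ± 0.54, DESeq2 adjusted p = 0.00364). All RIP libraries were above the inputs. The eIF4E1c difference missed the threshold with edgeR (adjusted p = 0.0252), total-count scaling (DESeq2 adjusted p = 0.0116) and the replicate block (0.0939). It also fell short when any single eIF4E1c input was dropped (DESeq2 adjusted p = 0.0120 to 0.0546). Without the first eIF4E1c RIP library it was 1.08. The 4E-BP gene eif4ebp3 was scarce, with 50.0, 41.8 and 22.4 normalized counts in eIF4E1b RIP, against 4.03, 5.49 and 10.9 in eIF4E1b input (2.45 ± 0.66, DESeq2 adjusted p = 0.000548). In eIF4E1c RIP it had 137 and 102 normalized counts, against 8.38, 13.5 and 6.0 in eIF4E1c input (3.67 ± 0.66, DESeq2 adjusted p = 2.62e-07; 0.00538 with the replicate block). Its inputs rest on 5 to 17 reads per library, and its eIF4E1b call was lost with total-count scaling (DESeq2 adjusted p = 0.00527). That call was also lost without the first or second eIF4E1b RIP or input library (DESeq2 adjusted p = 0.00619 to 0.0113). The remaining one, eif4e2rs1, did not pass in either line. It had 253, 407 and 317 normalized counts in eIF4E1b RIP, against 450, 436 and 493 in eIF4E1b input (-0.53 ± 0.26, DESeq2 adjusted p = 0.0736). All 3 RIP libraries were below the inputs, and with total-count scaling the difference passed (-0.95, DESeq2 adjusted p = 0.000639). In the eIF4E1c line the estimate was 0.85 ± 0.32 (DESeq2 adjusted p = 0.0195), and without the first eIF4E1c RIP library it was 1.08. The third gene that rose in eIF4E1b RIP was MKNK2 (ENSDARG00000015164), an MNK kinase gene, with 3125, 2071 and 2842 normalized counts, against 959, 844 and 1039 in eIF4E1b input (1.47 ± 0.24, DESeq2 adjusted p = 3.40e-09). In the inputs themselves 0 of the 20 were higher and 1 lower in eIF4E1b embryos, which was eif4g1a (-0.61 ± 0.15, DESeq2 adjusted p = 0.00191). The eif4g1a difference missed the threshold with edgeR (adjusted p = 0.0532) and with all 11 libraries in one fit (DESeq2 adjusted p = 0.730). It also fell short when any single input library other than the third of eIF4E1b was dropped (DESeq2 adjusted p = 0.00873 to 0.0204).

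The genes whose course over the 11 libraries was most like that of each bait were found among 9912 genes with a mean of at least 100 normalized counts. Likeness was the root mean square difference of centred log2 normalized counts, in which 0 would be an identical course. For eif4e1b they were TCEANC2 (0.385), tfb2m (0.431) and mrpl30 (0.435). For eif4e1c they were cnbpb (0.280), gstr (0.295) and si:ch73-359m17.2 (0.300). Among the 8 transcripts the closest pairs were eif4e3 with eif4ebp2 (0.445) and eif4e1c with eif4e2 (0.519), and the farthest was eif4e1b with eif4ebp2 (1.92). The 11 points of each distance differ in kit between RIP and input and in depth between libraries, and no test was made of them.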

How the data were processed

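Per the processing notes of the submitters, Trim Galore (0.5.0), Bowtie2 (2.3.4.1), featureCounts of Subread (1.6.2), DESeq2 (1.18.1), R (3.4.1) and the GRCz11 assembly were used. How strand and multiply matching reads were treated, and which annotation release was used, is not given in the sources used here, so that reads of close paralogs may have been split or dropped. The authors deposited raw read counts, 1 whole number for each Ensembl gene in each library, without normalization. Input libraries came from a stranded SMARTer kit with ribosomal RNA removal and RIP libraries from an ultra-low-input SMARTer kit. Groups and replicate numbers were taken from the labels, which call the replicates biological. Every pair of replicates differed by more than sampling noise.

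Counts were tested in R 4.3.3 by the Wald test of DESeq2 1.42.0, scaled by the median of ratios, with its independent filter and without shrinkage of fold changes. Adjusted p-values (Benjamini-Hochberg, over all genes) were held against 0.005, the threshold given in the study's figure legends. Fewer genes passed here than the study reports between the RIPs and between the inputs, and the reason was not tested. Each comparison used its own groups, and the ratio was the interaction of protein and library kind. Alternatives were edgeR's quasi-likelihood test (4.0.16, TMM, filterByExpr), total-count or TMM scaling, a minimum of 10 counts in 2 libraries, all 11 libraries in one fit, a replicate block and leaving out each library. Scaling by total counts moved the median gene by -0.42 for eIF4E1b RIP against input, -0.21 for eIF4E1c RIP against input, -0.11 between the RIPs and -0.23 for the ratio (log2). Scripts were tested on simulated counts. Deviations of same-numbered eIF4E1b RIP and input libraries from their group means correlated over 9913 genes (r = 0.448, 0.293 and 0.460), so that the numbers pair these samples. The block changed no call among the 8 transcripts in that comparison.

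The members and lists were chosen with earlier results of these data known. All 8 members are named. Of the 21 pathway names, 20 were matched to identifiers, and values are given for those past a threshold and for the first of each group. Exact permutation tests were two-sided, and intervals are 95% Wald intervals.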

Additional observations from a re-analysis of the deposited data

Results flagged for a closer look

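A pair of transcripts differed between eIF4E1b and eIF4E1c in their RIP to input ratio by the test of that difference. For eif4e2 the log2 difference was 1.61 (DESeq2 adjusted p = 0.00248). Every eIF4E1b RIP library (1845 to 2765 normalized counts) was above both eIF4E1c RIP libraries (708 and 1316), although the eIF4E1b inputs (319 to 448) were below the eIF4E1c inputs (492 to 547). Such a separation held for 44.8% of all tested genes between the RIPs and for 25.8% between the inputs. Neither the RIPs nor the inputs differed past the threshold for eif4e2 when compared directly (DESeq2 adjusted p = 0.0696 and 0.0994). The eif4e2 difference in the ratio was not past the threshold with edgeR (adjusted p = 0.0214) or with total-count scaling (DESeq2 adjusted p = 0.0582). Nor was it without the third eIF4E1b RIP library (DESeq2 adjusted p = 0.0116). Leaving out the first or second eIF4E1b input or any single eIF4E1c input also ended the call (DESeq2 adjusted p = 0.00975 to 0.0159). Without the first eIF4E1c RIP library the difference was 1.22. For eif4ebp3l the log2 difference was -2.75 (DESeq2 adjusted p = 2.46e-08). Its inputs overlapped between the lines (272 to 308 in eIF4E1b and 244 to 299 in eIF4E1c), and the difference lay in the RIP libraries (205.5 to 300 with eIF4E1b, against 1032 and 1999 with eIF4E1c). The eif4ebp3l value rests on only 2 eIF4E1c RIP libraries, the shallower of which had the higher level. Without that library the log2 difference was -2.21.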

How the results depend on the processing

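Of 496 values for single transcripts under the alternatives, 451 kept direction and side of the threshold, 31 lost a call, 6 gained one and 8 changed sign. These counts include the fits that leave a single eIF4E1c RIP library. None of the values that changed sign had passed the threshold. They were eif4ebp1 between the inputs without the third eIF4E1b input or the first eIF4E1c input (-0.073 to 0.17 over the libraries left out), eif4ebp2 between the inputs without the second or the third eIF4E1c input (-0.35 to 0.047), eif4ebp1 in eIF4E1b RIP against input with total-count scaling (-0.10), and eif4ebp2 in eIF4E1c RIP against input with total-count scaling (-0.017), without the second eIF4E1c RIP library or without the first eIF4E1c input (-0.53 to 0.59). With edgeR the count of the 8 transcripts called was 0 between the RIPs, 1 between the inputs, 3 for eIF4E1c RIP against input and 1 for the ratio, against 2, 2, 5 and 2 with DESeq2. Total-count scaling gave 1 between the RIPs and 1 for the ratio, and all 11 libraries in one fit gave 3 between the RIPs and 1 between the inputs. With the replicate block it was 1 between the RIPs and 3 for eIF4E1c RIP against input, and the same as without it in the other comparisons. Same-numbered libraries correlated at r = 0.077 and 0.042 between the RIPs, and at 0.223 and 0.077 between eIF4E1c RIP and input. The 2 eIF4E1c RIP libraries deviate from their own mean in mirror image. Their r values with a given library therefore differ only in sign and are not separate evidence on the pairing. The deposited table of the second eIF4E1c RIP carries the number 3, and its r with the third eIF4E1c input was 0.238, so that for this line the pairing is in doubt and neither shown nor refuted. Leaving out single libraries other than the eIF4E1c RIPs gave 1 to 2 between the RIPs and 1 to 2 for the ratio. It gave 3 to 4 for each RIP against its own input. Over all tested genes, 1119 were called between the RIPs, against 4 with edgeR, 3171 with all 11 libraries and 452 with the block. Without single eIF4E1b RIP libraries 449 to 735 were. Between the inputs 354 were called, against 14 with edgeR, 109 with all 11 libraries and 208 to 313 without single libraries. For eIF4E1c RIP against input 5142 were called, against 2345 with edgeR, 2853 with the block and as few as 3070 without a single input. For the ratio 1278 were called, against 254 with edgeR and as few as 736 without a single input. Total-count scaling changed the share of calls that were higher to 32.6% in place of 43.3% between the RIPs, to 35.9% in place of 49.7% for eIF4E1b RIP against input and to 21.4% in place of 41.6% for the ratio. The SE of the 8 transcripts was 0.36 to 0.51 between the RIPs, against 0.15 to 0.24 between the inputs.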
